A study of Mus musculus with 2 samples.

Results

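The barcodes described here carried RNA of fibroblasts in a culture of mouse embryonic stem cells. They were chosen by measured values: at least 18000 UMIs (unique molecular identifiers, each counting 1 captured RNA molecule), at least 1000 genes, at most 10% mitochondrial UMIs, and together at least 50 UMIs of Col1a1, Col1a2, Bgn, Mgp and S100a4. This rule found 396 of 25962 barcodes at time 1 (1.53%, exact Clopper-Pearson 95% interval 1.38 to 1.68) and 728 of 28317 at time 2 (2.57%, 2.39 to 2.76), or 1124 of 54279 in all. They are called collagen-positive barcodes below, and the other barcodes past the same filters serve as the comparison. The cultures were 9 pooled C3H/HeSn-Paf/J embryonic stem cell lines, 3 each from XX, XO and XY embryos. They grew on gelatin and irradiated mouse embryonic fibroblast (MEF) feeders in medium with LIF and fetal bovine serum. One library was made at an early passage (time 1) and 1 after 10 further passages (time 2), both by droplet capture (10x Chromium, version 3.1 chemistry). The labels do not give the strain, sex or batch of the feeders. With 1 library per time point, passage, library and any change of feeder lot cannot be told apart, and no test between times was possible. Every interval below covers counting error only.

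Feeder fibroblasts are cells of the embryonic connective tissue that are irradiated so that they no longer divide and are then plated as a living substrate. They lay down collagens and other matrix, and they secrete factors that help to hold stem cells undifferentiated. Fibroblasts in culture also build actin stress fibres and can take on the contractile, matrix-producing state of the myofibroblast. Irradiation breaks DNA, which activates the transcription factor p53 and its target genes. When a culture is detached, some feeders come along with the stem cells.

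The label of feeder fibroblasts held for only some of the chosen barcodes. The summed level of 12 pluripotent stem cell markers, in CPM (counts scaled to the same total in every barcode or class), split them. In 191 barcodes at time 1 (48.2% of the collagen-positive barcodes, interval 43.2 to 53.3) and 335 at time 2 (46.0%, 42.3 to 49.7) this sum was under 0.1 times the median of the other barcodes. They are called pluripotency-low. Their median pluripotent marker level was 4.78% of that of the other barcodes at time 1 and 2.80% at time 2. The remaining 205 and 393 barcodes, called pluripotency-high, had a median of 62.9% and 68.4%. Barcodes were sparse around the dividing line at time 2, where 49 lay between 0.05 and 0.1 times and 22 between 0.1 and 0.2 times. At time 1 these counts were 81 and 29. The 5 choosing genes together had a median of 6764 CPM per pluripotency-low barcode at time 1 and 8346 at time 2, against 2890 and 2552 per pluripotency-high barcode. Pluripotency-high barcodes thus held RNA of both kinds, and values for fibroblasts are given below for the pluripotency-low barcodes.

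**Figure D1:**
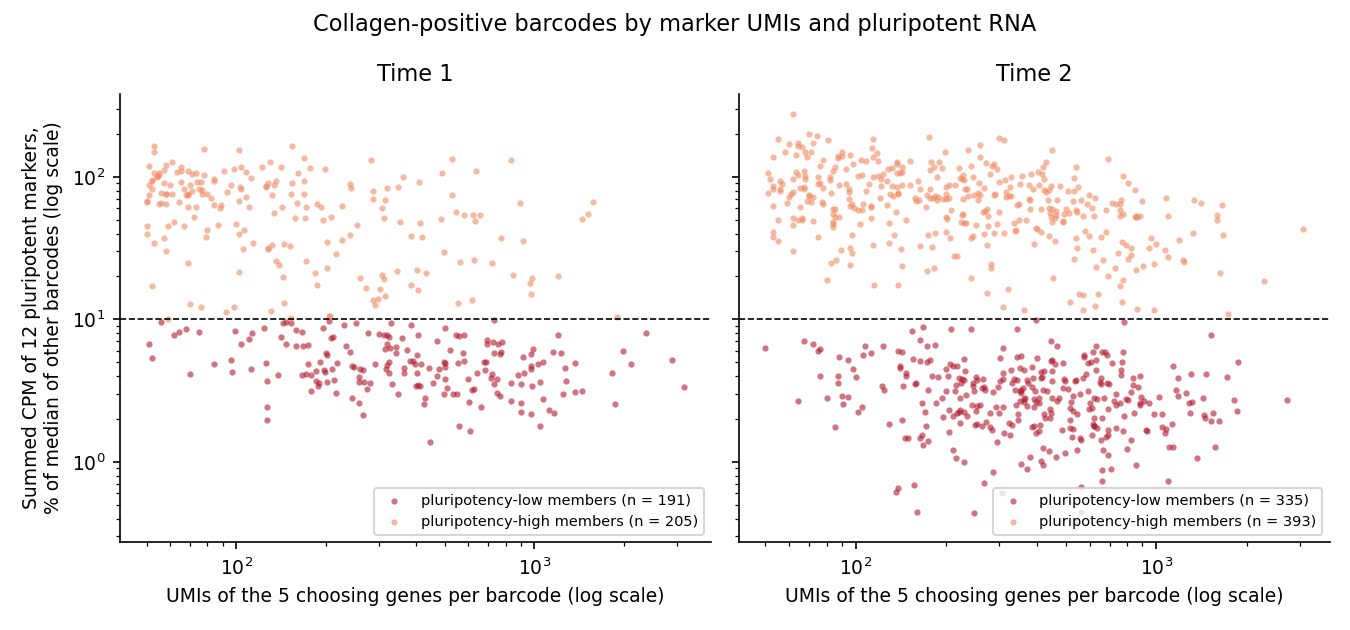
Each point is a collagen-positive barcode, with the UMIs of the 5 choosing genes on the x axis (log scale) and its summed CPM of 12 pluripotent markers, as a percent of the median of the other barcodes, on the y axis (log scale). The dashed line at 10% divides the pluripotency-low barcodes (191 at time 1, 335 at time 2) from the pluripotency-high ones (205 and 393), and the barcodes with the fewest choosing UMIs lie mostly above it.

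The threshold itself fell among pluripotency-high barcodes. Of the barcodes just inside it, with 50 to 59 UMIs of the 5 genes, 32 of 35 at time 1 and 18 of 19 at time 2 were pluripotency-high. Just outside, with 40 to 49 UMIs, 71 of 76 and 21 of 25 had pluripotent marker levels above the same line. Among barcodes with at least 1000 UMIs of the 5 genes, only 5 of 28 at time 1 and 18 of 51 at time 2 were pluripotency-high. Pluripotency-low barcodes had a median of 59705 UMIs at time 1 and 45561 at time 2, pluripotency-high ones 51233 and 97660, and other barcodes 44939 and 52348. The libraries held 1735810403 and 1843588321 UMIs in all, and no barcode sequence was collagen-positive in both, although 194 passed the filters in both.

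A doublet caller gave different pictures by its setting. Scrublet scores how closely a barcode resembles simulated mixtures of 2 barcodes. In its default setting, 3.90% of the pluripotency-high barcodes at time 1 and 21.1% at time 2 were in the top 10% of the scores of their library, against 9.57% and 9.68% of other barcodes and none of the pluripotency-low ones. With log-transformed counts, a setting kept after its values were seen, these shares were 41.5% and 57.0% of pluripotency-high, 9.54% and 9.12% of other, and 8.90% and 0.896% of pluripotency-low barcodes. At time 1 the settings thus placed the pluripotency-high barcodes below and above the other barcodes by this share, although in the default setting their median score was above that of other barcodes, at 0.0766 against 0.0595. Doublets were not removed, and what share of the pluripotency-high barcodes held 2 cells was not tested.

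The genes that chose the barcodes describe them first. Col1a1 and Col1a2 encode the chains of type I collagen, the main fibre of connective tissue. Bgn encodes biglycan, a small proteoglycan that binds collagen, Mgp the matrix Gla protein, an inhibitor of calcification, and S100a4 a calcium-binding protein of motile mesenchymal cells. Promoter sequence from RefSeq (GRCm38.p6) is shown for Col1a2, Bgn and S100a4 and for Acta2, smooth muscle actin, since these genes were among those with the highest levels relative to other barcodes. Each run holds the 250 bases before the gene's start, read 5′ to 3′ on the gene's strand.
Col1a2, chr6:4505368-4505617, plus strand: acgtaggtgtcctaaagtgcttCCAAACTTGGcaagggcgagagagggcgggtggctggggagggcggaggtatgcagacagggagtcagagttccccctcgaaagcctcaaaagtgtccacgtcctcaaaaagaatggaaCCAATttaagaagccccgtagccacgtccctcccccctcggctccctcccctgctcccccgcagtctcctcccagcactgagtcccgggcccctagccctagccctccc
Bgn, chrX:73483351-73483600, plus strand: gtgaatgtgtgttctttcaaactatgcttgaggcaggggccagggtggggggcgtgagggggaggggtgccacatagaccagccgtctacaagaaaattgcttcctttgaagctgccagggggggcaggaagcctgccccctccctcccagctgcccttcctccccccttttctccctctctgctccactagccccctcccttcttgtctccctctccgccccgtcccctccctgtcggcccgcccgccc
S100a4, chr3:90603520-90603769, plus strand: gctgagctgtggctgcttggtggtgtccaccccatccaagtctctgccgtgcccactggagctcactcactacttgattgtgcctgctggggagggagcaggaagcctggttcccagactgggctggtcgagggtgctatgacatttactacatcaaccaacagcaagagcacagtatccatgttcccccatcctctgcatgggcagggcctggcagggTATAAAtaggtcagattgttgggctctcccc
Acta2, chr19:34255374-34255623, minus strand: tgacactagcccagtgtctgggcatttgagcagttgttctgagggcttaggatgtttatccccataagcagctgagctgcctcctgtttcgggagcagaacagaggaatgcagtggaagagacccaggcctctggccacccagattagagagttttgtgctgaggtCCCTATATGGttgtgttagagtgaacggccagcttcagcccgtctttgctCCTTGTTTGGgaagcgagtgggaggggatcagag
Capitals mark matches to motifs searched on both strands: the TATA box (TATAAA), the CCAAT box, and the CArG box, the site of serum response factor. The CArG box has 6 bases between CC and GG, and it was searched with only A or T there and, in a search added after the sequences were seen, with at most 1 other base there. Col1a2 held a match to the CCAAT box and S100a4 held 1 to the TATA box. No window held the strict CArG box, while Acta2 held 2 matches to the looser form and Col1a2 held 1. The Bgn window held no match to any of these letters. Over 32851 promoters, 12.4% held the TATA box, 33.8% the CCAAT box, 1.47% the strict CArG box and 8.59% the looser form, which includes the strict one. None of the motifs overlapped another in these runs.

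In pluripotency-low barcodes, Col1a1 (chromosome 11) was at 1211 CPM at time 1 and 944 at time 2, against 5.18 and 2.29 in other barcodes. Col1a2 was at 1270.2 and 1017 CPM, against 3.30 and 1.51. Bgn stood at 1948 CPM (exact Poisson 95% interval 1925 to 1973) and 1829 (1809 to 1849), against 6.63 and 2.89. These are summed values that the choice of barcodes fixed to be high. Mgp was at 1464 CPM (1444 to 1485) and then at 2545 (2521 to 2568), and S100a4 at 1918 and 3086. None of these 5 sums differed 2-fold between the times. However, 5 barcodes held 40.8% of the Mgp UMIs at time 1, and without the 5 barcodes with the most in each library, a check added after values were seen, Mgp went from 892 to 2191.5 CPM, a log2 ratio of 1.30. Background barcodes, with under 1000 UMIs, held Col1a1 at 32.7 and 51.4 CPM and S100a4 at 22.9 and 94.7 CPM, above the other barcodes in both libraries.

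Single barcodes varied widely around these sums. Pluripotency-low barcodes also varied in the number of genes seen, with medians of 6693 at time 1 and 5979 at time 2. At time 1, for example, a barcode of 42383 UMIs had 2912 genes, while one of 42677 UMIs had 6518. At time 2, barcodes of 40661 UMIs had 3568 and 5901 genes. The part of low gene counts in the spread of single genes was not tested. At a common depth of 18000 UMIs, 97.4% of pluripotency-low barcodes at time 1 and 98.8% at time 2 had a Bgn UMI, against 7.51% and 4.45% of other barcodes. Col1a1 was seen in 86.4% and 87.2% of them, against 7.04% and 3.61% of other barcodes. Mgp was seen in only 52.9% and 72.8%: its median per barcode was 41.4 CPM at time 1 and 676 at time 2, while the highest barcodes reached 70142 and 35042 CPM. Mgp was thus absent or low in many barcodes, whereas Bgn was seen in nearly all of them.

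**Figure D2:**
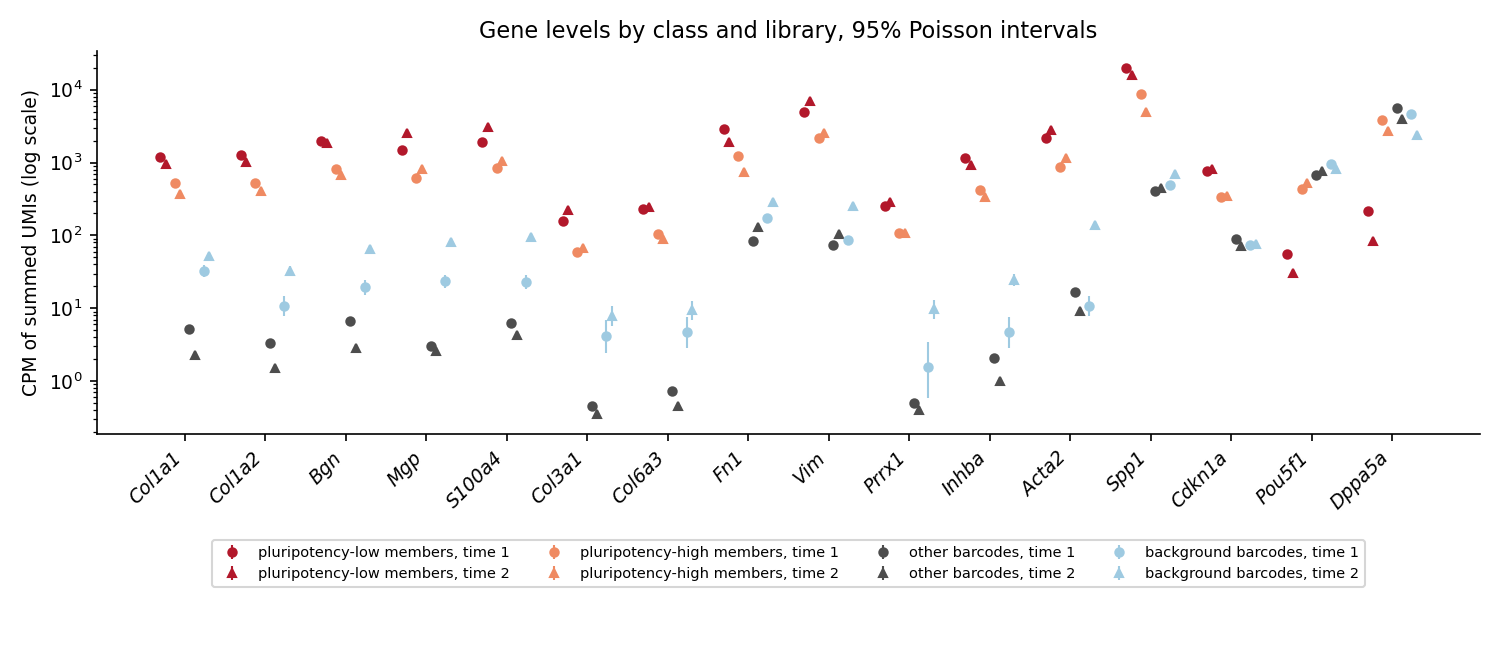
CPM of summed UMIs (y axis, log scale) for 16 genes in 4 classes of barcodes, with circles for time 1, triangles for time 2 and bars for exact Poisson 95% intervals. The first 5 genes chose the barcodes. For the fibroblast genes, pluripotency-low barcodes lie above pluripotency-high ones and both lie far above other barcodes. Pou5f1 and Dppa5a show the opposite order. They are among the 12 markers whose sum divided the collagen-positive barcodes, so their order between pluripotency-low and pluripotency-high barcodes follows from that choice.

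Beyond the 5 genes, the pluripotency-low barcodes had high levels of many other connective-tissue genes. Of 3805 genes with at least 50 CPM in either class of a library, 511 (13.4%) were at least 4-fold higher than in other barcodes in each library, and 329 (8.65%) were at least 4-fold lower, on the scale of log2 of CPM plus 1. The median of all tested genes was -0.18 at time 1 and -0.17 at time 2. Over all collagen-positive barcodes together, 301 of 3488 genes (8.63%) were higher and none (0%) lower. Since barcodes were chosen on this contrast, these counts are a description and not a test. A gene that reached 50 CPM only in the pluripotency-low class had to lie above other barcodes in a library where it did so. Of 968 such genes, 455 were called at least 4-fold higher in each library, and these were 455 of the 511. In the same way, a gene that reached 50 CPM only in other barcodes had to lie below them in a library where it did so. Lists are therefore given by the number of all listed genes with a level above that of other barcodes in both libraries. This held for 29.3% of the 28171 genes with a UMI in these classes. Most of those genes were too scarce to test, so this share is not that of abundant genes. All 24 listed fibroblast markers outside the rule were above other barcodes in both libraries. Vim, the intermediate filament of mesenchymal cells, was at 5019 and 7001 CPM against 73.5 and 106 in other barcodes. Prrx1, a transcription factor of limb and craniofacial mesenchyme, was at 254 and 289 CPM against 0.507 and 0.404. The 20 genes with the highest ratios also included Tm4sf1, a tetraspanin-like surface protein, at 889 and 850.2 CPM against 1.81 and 0.976. Mcpt8, known as a protease of basophils and mast cells, was at 396 and 397 CPM against 1.23 and 0.498. Among the 20 lowest ratios was Dppa5a, a pluripotency gene of the list used for the split, at 214 and 83.7 CPM against 5695 and 3946. Hmgb2, a chromatin protein of dividing cells, was at 144 and 114 CPM against 1605 and 2126.

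Of 11 listed fibrillar collagen genes, 10 were above other barcodes in both libraries, beside 29.3% of all genes with a UMI. Among the 10 was Col3a1, at 158 and 223 CPM against 0.456 and 0.358. All 21 collagen-processing genes were above other barcodes in both, including Serpinh1, a collagen chaperone, at 629 and 649 CPM against 59.0 and 46.1. The same held for all 12 elastic fibre genes, of which Efemp2, a fibulin, was at 197 and 239 CPM against 8.12 and 4.56. It held as well for all 10 matricellular genes, whose products sit in the matrix and signal to cells. Fn1, fibronectin, was at 2928 and 1889.6 CPM, Thbs1, thrombospondin 1, at 1806 and 1231, and Tnc, tenascin C, at 1065 and 636. In other barcodes these 3 genes were at 83.4 and 129, 11.5 and 3.34, and 3.29 and 1.34 CPM. Of 18 matrix proteases and their inhibitors, 17 were above other barcodes in both libraries, and Timp1, an inhibitor of matrix metalloproteinases, was at 3303 and 3039 CPM against 37.3 and 37.8.

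Of 43 listed ligands and antagonists, 40 were above other barcodes in both libraries and 3 below, many of them at low levels. Over all genes with a UMI in these classes, 29.3% were above in both and 49.9% below. Inhba, the subunit of activin A, was at 1169 CPM (1151 to 1188) at time 1 and 938 (924 to 953) at time 2, against 2.04 and 1.02 in other barcodes. This was 572-fold and 924-fold, the highest smaller-of-both-libraries log2 ratio of any gene with at least 50 CPM in these barcodes. Grem1, which binds and blocks BMPs, was at 521 and 439 CPM against 1.48 and 1.12. Fgf2 was at 50.05 and 66.3 CPM against 0.182 and 0.191, Wnt5a at 87.6 and 84.6 against 0.571 and 0.862, and Csf1, a macrophage growth factor, at 204 and 161 against 1.47 and 0.683. Igfbp2 went the other way, at 84.2 and 84.8 CPM against 339.9 and 300.4. Of 23 receptors, 19 were above other barcodes in both libraries and 3 below, and the integrin subunit Itgb1 was at 1543 and 1434 CPM against 82.2 and 90.3.

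Contractile genes were high in sum and varied between barcodes. Of 13 listed, 12 were above other barcodes in both libraries and 1 below, beside 29.3% and 49.9% of all genes with a UMI. Acta2, the actin of smooth muscle and myofibroblasts, was at 2178 CPM (2153 to 2204) and 2823 (2798 to 2847) against 16.9 and 9.23. Tagln, an actin-binding protein, was at 4120.2 and 3594 CPM against 239 and 106. Between barcodes Acta2 ran from a 10th percentile of 0 to a 90th of 6310 CPM in the first library and from 0 to 7533 in the second, with medians of 679 and 1211. The 6 listed markers that define smooth muscle and pericytes summed to 62.4 and 81.1 CPM against 30.1 and 15.5 in other barcodes, with 4 of them above in both libraries, and none was abundant enough to test.

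The most variable genes did not all vary together. Variance over mean across pluripotency-low barcodes at 18000 UMIs was highest for Malat1, a nuclear noncoding RNA, and Spp1, osteopontin, a secreted matrix phosphoprotein. Spp1 summed to 19682 CPM at time 1 and 16048 at time 2 against 409 and 453, but its 10th to 90th percentile per barcode ran from 202 to 60532 CPM in the first library and from 68.0 to 47523 in the second. Spp1 and Mgp varied together, with a rank correlation of 0.555 over 191 barcodes and 0.658 over 335. Acta2 and Tagln varied together too, at 0.872 and 0.897. Acta2 and Spp1 ran in opposite directions, at -0.349 and -0.436, while Acta2 and Col1a1 showed almost no relation, at 0.00569 and -0.111. All points of a correlation share 1 library and 1 depth, so these values describe the barcodes and were given no p. The 15 leading genes also held Crabp1, a retinoic acid-binding protein, the noncoding gene Gm42418, Cck, a peptide hormone, S100a6, Acta1, Mmp3, Tmsb4x, Fth1, Actb and Timp1. Variance over mean is higher for abundant genes at the same relative spread, and S100a6 was at 17308 and 16566 CPM. Crabp1 was seen in 50.3% and 39.1% of barcodes at 18000 UMIs and Cck in 21.5% and 15.5%.

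**Figure D3:**
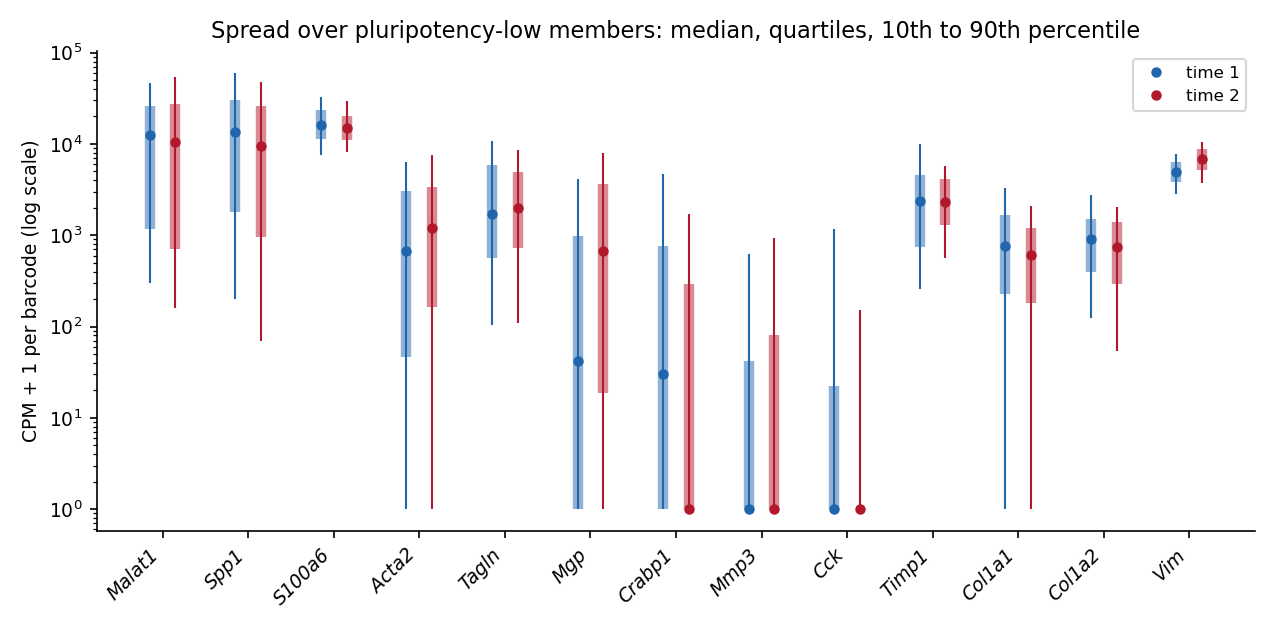
Median (point), quartiles (thick bar) and 10th to 90th percentile (thin line) of CPM plus 1 per pluripotency-low barcode (y axis, log scale) for 13 genes, in blue for time 1 and red for time 2. On this log scale S100a6, Timp1 and Vim have narrower ranges, while Malat1, Spp1, Acta2 and Mgp span several powers of 10, with a 10th percentile at 0 for Acta2 and Mgp.

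Of 39 Hox genes, which mark position along the body and limb axes, 35 had a level above that of other barcodes in both libraries. This held for 29.3% of all genes with a UMI. Only Hoxc8 reached the abundance for a call, at 50.05 and 35.4 CPM against 0.158 and 0.155. At 18000 UMIs Hoxc8 was seen in 44.5% and 22.7% of barcodes, Hoxc6 in 25.7% and 20.3%, Hoxb9 in 28.8% and 22.1%, and Hoxd13, a gene of the distal limb, in 7.85% and 18.8%. Sox9, the chondrogenic regulator, was at 130.3 and 138 CPM, but the 6 listed cartilage markers summed to only 134 and 143, so the others were near 0. Of 7 bone markers, 4 were above other barcodes in both libraries, among them Spp1, and 2 below, among them Alpl at 3.67 and 2.45 CPM against 44.4 and 69.4. Of the skeletal muscle markers, which summed to 277 and 207 CPM against 12.5 and 13.2 in other barcodes, Acta1, skeletal actin, alone was at 276 and 205, and the myogenic regulator Myf5 was at 0 in both libraries. Without the 5 barcodes with the most in each library, which held 52.4% and 62.2% of its UMIs, Acta1 was at 136 and 79.8 CPM. Fat markers summed to 23.6 and 29.6 CPM against 4.62 and 5.11, tendon markers to 9.47 and 30.2 against 3.22 and 2.09, and endothelial markers to 8.41 and 9.96 against 31.0 and 30.7.

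Of 26 listed p53 targets, 17 were above other barcodes in both libraries and 5 below, beside 29.3% and 49.9% of all genes with a UMI. Of the 16 tested, 6 (and 13.4% of all tested genes) were at least 4-fold higher in each library, and 4 of the 16 reached 50 CPM only in this class. Cdkn1a, the p21 inhibitor of cyclin-dependent kinases, was at 759 CPM (744 to 774) and 807 (794 to 821) against 89.7 and 71.6. Mdm2, the p53 ubiquitin ligase, was at 275 and 309 CPM against 67.2 and 61.3. Ccng1, Phlda3, Btg2 and Plk2 were the others, while Bax stood at 467 and 539.7 CPM against 527 and 485. Cdkn2a, which encodes p16 and p19ARF and accumulates in ageing fibroblast cultures, is on the list of senescence genes. Of these 24 genes, 23 were above other barcodes in both libraries. Of the 17 tested, 14 reached 50 CPM only in this class. Cdkn2a was at 757 and 414 CPM against 41.8 and 23.7. All feeders were irradiated per the labels, so the part of irradiation in these levels was not tested.

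Cell division genes were low in most of these barcodes but not in all. All 22 mitosis genes and all 22 DNA replication genes were below other barcodes in both libraries, beside 49.9% of all genes with a UMI. At least 4-fold lower in each were 18 of 22 and 16 of 20 tested, beside 8.65% of all tested genes. Only 5 of these 22 and 2 of these 20 reached 50 CPM in pluripotency-low barcodes of either library. The rest reached it only in other barcodes, so they had to lie below them in a library where they did so. These counts are therefore a description and not a test. At 18000 UMIs a pluripotency-low barcode had a median of 5 mitosis-list UMIs at time 1 and 4 at time 2, and other barcodes 64 and 69. However, 13 of 191 barcodes at time 1 (6.81%, interval 3.67 to 11.4) and 61 of 335 at time 2 (18.2%, 14.2 to 22.8) had at least 20, a line drawn after the values were seen. Another 18 and 19 barcodes had 10 to 19. The choice of this class had already held every barcode under 0.1 times the median pluripotent marker level of the other barcodes. Within that limit, the time 2 group with at least 20 had a median of 3.08% of that level, against 2.76% in the rest. At time 1 these values were 6.97% and 4.73%. Gene levels in this split are CPM after each barcode was thinned to 18000 UMIs. Their basis thus differs from that of the full-depth class sums given elsewhere, and the 2 are not to be compared. Genes of the mitosis list formed this split, so their levels only describe it: at time 2 the group had Mki67, a marker of cycling cells, at 84.7 CPM against 4.66 in the rest, and Ube2c, a mitotic ubiquitin enzyme, at 258 against 24.3. It also had Ccnd1, cyclin D1, at 1202 against 828, Cdkn2a at 256 against 443, Cdkn1a at 449 against 827, Mdm2 at 353 against 294, Spp1 at 9488 against 18456, Malat1 at 5291 against 22369 and Col1a1 at 463 against 938. Prrx1 was at 260.5 and 276 CPM. At time 1 Col1a1 was at 1119.7 in the 13 barcodes (988 to 1264) and 1256 in the rest (1218 to 1296), so the intervals overlapped, and Col1a2 was at 1256 and 1159. As at time 2, the 13 were lower in Cdkn2a (534 against 857), Cdkn1a (389 against 743), Spp1 (11547 against 23254) and Malat1 (9410.3 against 18945). Also lower in the 13 were Mgp (329 against 2007), Bgn (1026 against 2227), S100a4 (1462 against 2265), Acta2 (1397 against 2222) and Tagln (1778 against 4214). Mdm2 was at 197 against 252 and Prrx1 at 261 against 236. The median depth of the group was 92493 UMIs against 57684.5 in the rest at time 1 and 39919 against 46606.5 at time 2. Xist, the X inactivation transcript, was at 248 CPM in the group against 246 in the rest at time 1. At time 2 it was at 86.5 against 213. RNA from stem cells in these droplets was not tested as a source. The pluripotent marker levels cannot serve as such a test, since the choice of the class limited them.

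**Figure D4:**
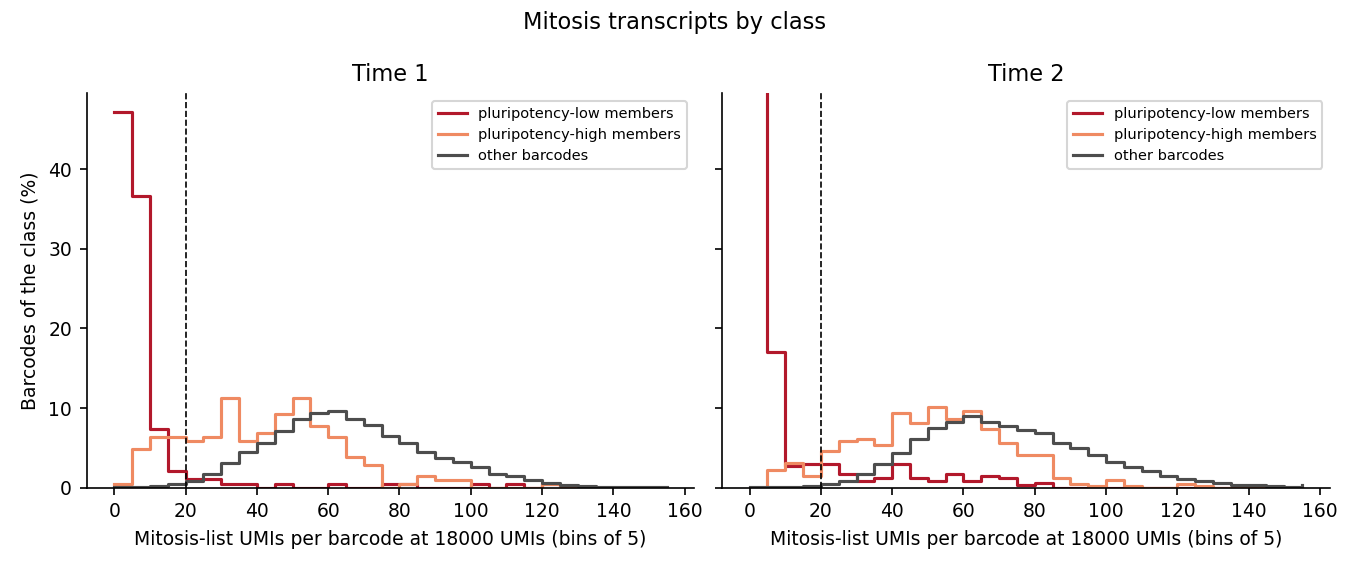
Share of barcodes (y axis, %) by mitosis-list UMIs at 18000 UMIs (x axis, bins of 5) for pluripotency-low, pluripotency-high and other barcodes at each time, with the dashed line at 20 UMIs. Most pluripotency-low barcodes lie in the lowest bins, and 6.81% at time 1 and 18.2% at time 2 lie at or above the line; the y axis ends below the tallest bin.

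In pluripotency-low barcodes, 17 of 2824 tested genes (0.602%) were at least 2-fold higher at time 2 and 42 (1.49%) at least 2-fold lower, with a median of 0.05 over all tested genes. In all collagen-positive barcodes together these counts were 31 (1.06%) and 51 (1.74%) of 2934. They depended on the processing: trimmed mean scaling gave 57 and 36, the mean of CPM per barcode 14 and 38, a marker threshold of 20 UMIs 73 and 55, and no minimum level 144 and 306. Of the 31, only Actg2 was also at least 2 times above other barcodes, as were 35 of the 51. Of all 2934 tested genes, 601 were. In pluripotency-low barcodes this held for 12 of the 17 and 26 of the 42, and for 1027 of all 2824. The 42 also held markers of other cells: 2 of 2 epithelial and 1 of 2 pluripotent markers tested were lower at time 2. The pluripotent markers summed to 377 and 177 CPM in these barcodes and to 8150 and 6579 in other barcodes. Among the lists, 2 of 9 contractile genes tested were higher at time 2: Actg2, a smooth muscle actin, went from 30.2 to 88.6 CPM and Cnn1, calponin, from 76.7 to 167. In other barcodes Cnn1 went from 23.6 to 13.5 CPM. Of the 9 matricellular genes tested, 3 were lower at time 2. Postn, periostin, went from 291 to 135 CPM, Ccn2 from 374 to 165 and Ccn1 from 178 to 78.7, the last also lower in other barcodes, from 75.8 to 26.5. Ankrd1 went from 85.7 to 18.3 CPM and from 2.15 to 0.436 in other barcodes. Ccn1, Ccn2 and Ankrd1 are textbook targets of the YAP and TAZ coactivators, which sense cell stretch and density.

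Of the 11 matrix proteases and inhibitors tested, 2 were at least 2-fold lower at time 2, beside 1.49% of all tested genes. Mmp10 went from 113 to 48.0 CPM and Mmp13 from 103 to 40.9. Outside the lists, Tfpi2, a protease inhibitor, went from 191 to 38.3 CPM, Serpinb2, an inhibitor of plasminogen activators, from 124 to 30.5, and F3, tissue factor, from 122 to 41.2. In other barcodes F3 went from 11.0 to 3.42 CPM, while Tfpi2 and Serpinb2 were near 0 in both libraries. Of 6 interferon response genes tested, 3 were at least 2-fold lower at time 2, beside 1.49% of all tested genes. They were the antigen-presentation genes B2m, H2-K1 and H2-D1, with B2m going from 705 to 339 CPM. In other barcodes B2m went from 23.8 to 12.2 CPM, H2-K1 from 70.9 to 28.7 and H2-D1 from 24.95 to 9.45, so these genes were lower at time 2 in both classes. Of the p53 targets only Pmaip1, the cell-death gene Noxa, was at least 2-fold higher, going from 44.2 to 105 CPM, while in other barcodes it went from 39.2 to 28.7. Rrm2, a ribonucleotide reductase subunit used in DNA replication, went from 36.1 to 88.3 CPM. Of the 2 DNA replication genes tested between the times, 1 was at least 2-fold higher and 1 was below its time 1 level. Of 5 mitosis genes tested, 3 were above their time 1 level and 2 below, and 0 were 2-fold apart. The share of barcodes with mitosis transcripts was larger at time 2. Whether that share sets the Rrm2 level was not tested.

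The highest ratios at time 2 belonged to genes with low or patchy levels. Msln, mesothelin, a surface protein of mesothelium, went from 0.688 to 50.4 CPM, but 5 barcodes held 98.3% of its UMIs at time 2 and without them it was at 0.874 CPM. Igf2, a fetal growth factor, went from 10.6 to 56.3 CPM and was seen in 6.28% and 24.2% of barcodes at 18000 UMIs. Smoc2, a matrix protein, went from 19.9 to 73.3 CPM, Tslp, a cytokine, from 17.6 to 63.4, and Masp1, a complement protease, from 21.9 to 64.4. In other barcodes Smoc2 was at 0.302 and 0.257 CPM, Tslp at 0.178 and 0.0629 and Masp1 at 0.105 and 0.114. Leaving out the 5 barcodes with the most UMIs of a gene in each library took Tslp from 9.79 to 19.4 CPM, under 2-fold, and Mmp10, Msln and Lyz2 also fell under 2-fold. Smoc2 then went from 13.1 to 66.5 CPM and Igf2 from 2.60 to 39.8. Of the genes named for the 10 highest or lowest ratios between the times, no other that was past 2-fold fell under it. Some then lay under the minimum of 50 CPM in both libraries. Among them were Ankrd1, at 48.1 and 9.83 CPM, and Actg2, at 15.3 and 39.2. Actg2 had a UMI in 40 barcodes at time 1 and 70 at time 2. This check was added after values were seen. It did not cover other list genes such as Postn, Ccn1, Mmp13, B2m and Rrm2.

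**Figure D5:**
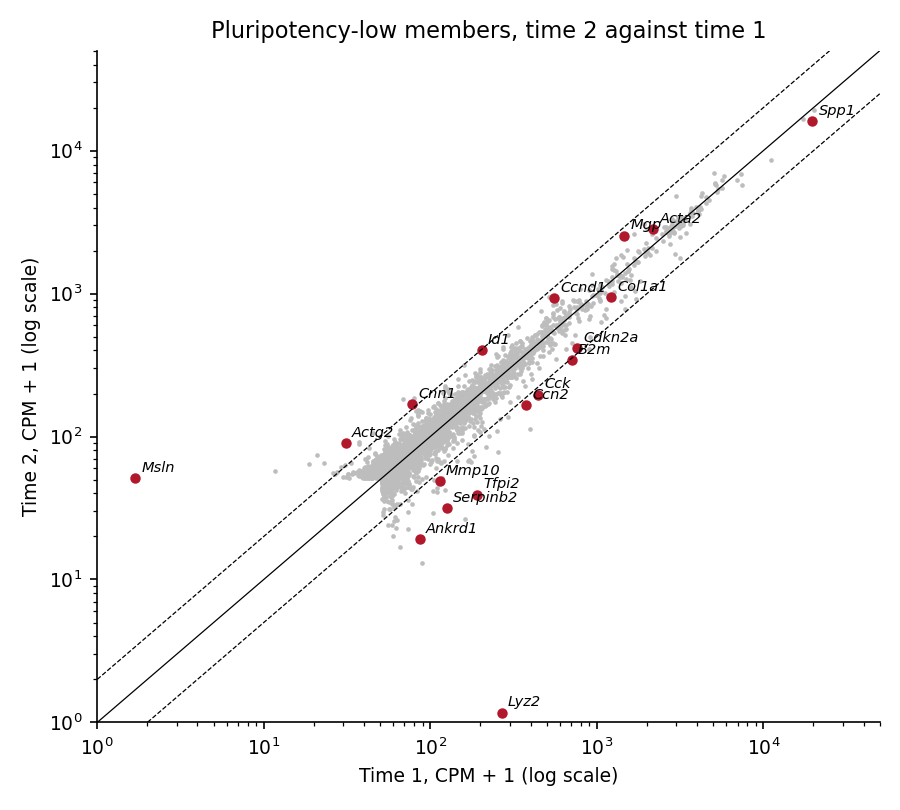
CPM plus 1 of each tested gene in pluripotency-low barcodes at time 1 (x axis) and time 2 (y axis), both on log scales, with the solid line at equality and dashed lines at 2-fold. Apart from Id1, the labelled genes were picked from those named in the text. Most genes lie between the dashed lines, with Msln far above and Lyz2 far below.

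Markers of other cell types were present at several levels. The 8 blood and macrophage markers summed to 401 CPM at time 1 and 2.79 at time 2, and 4 pluripotency-low barcodes held 5213 of the 5248 such UMIs at time 1. Without those 4 the sum was 2.77 CPM, and Lyz2, the macrophage lysozyme, was at 0.711 CPM instead of 267. At time 2 no pluripotency-low barcode had 10 or more such UMIs. In other barcodes the list summed to 20.7 CPM at time 1 and 1.33 at time 2, so Lyz2 was lower at time 2 there as well, at 14.4 and 0.511 CPM. Epithelial markers summed to 232 and 50.8 CPM, below the 948 and 526 of other barcodes. Neural and glial markers summed to 230 and 175 CPM against 322 and 474, nearly all of it Stmn2 and Tubb3, while Sox10 was at 0.153 and 0.0569. Primitive and parietal endoderm markers summed to 61.7 and 43.1 CPM against 17.8 and 17.8, most of it Thbd, thrombomodulin, at 43.4 and 27.03, and of the 8 listed 3 were above other barcodes in both libraries and 4 below. The part of such cells in the results was not tested.

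Pluripotency-low barcodes differed in Xist and Y-linked RNA. Of them, 94 of 191 at time 1 (49.2%, interval 41.9 to 56.5) and 163 of 335 at time 2 (48.7%, 43.2 to 54.1) had at least 2 UMIs of Xist, the X inactivation transcript, and fewer than 2 from 4 Y-linked genes. A further 47 (24.6%) and 81 (24.2%) had Y-linked UMIs and no such Xist level, and 2 in each library had both. The remaining 48 (25.1%) and 89 (26.6%) had neither, or 35.1% and 37.6% at 18000 UMIs. In other barcodes the Xist-only share was 18.8% at time 1 and 2.46% at time 2. At 18000 UMIs the Xist-only shares were 46.6% and 44.8% in pluripotency-low barcodes and 11.9% and 0.892% in other barcodes. The intervals of the Xist-only share overlapped between the times in pluripotency-low barcodes, and in other barcodes the share was lower at time 2. Each interval covers counting error over the barcodes of 1 library, so neither likeness nor difference between the times was tested.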

How the data were processed

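The deposited values are whole-number UMI counts for each gene in each barcode, without normalisation. The file headers name Cell Ranger 6.1.2, and the submitters' processing notes add bcl2fastq 2.20.0.422 and the builds mm10 and GRCm38. GENCODE M21 covered 32158 of the 32285 gene identifiers. UMIs were summed per library and class and scaled to CPM here, and log2 ratios used CPM plus 1. Genes needed 50 CPM in either class or library. Calls needed a 4-fold difference from other barcodes in each library, or 2-fold between the times. UMI levels per gene were not scaled by length, since each UMI marks 1 molecule. Where a share or count per barcode is given at 18000 UMIs, barcodes were thinned to that depth, which none fell below. Other counts per barcode are at full depth. Gene levels in the split by mitosis-list UMIs are CPM of the thinned UMIs. Without replicates no p-value was computed.

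Members and 36 gene lists were chosen with earlier results of these data known. Genes were named by 5 rules: the choosing genes, the 20 highest ratios to other barcodes, the 10 highest and lowest ratios between times among genes at least 2 times above other barcodes, the 15 highest variances over means, and list genes by level or fold. Members were also split by pluripotent RNA. Leading with the pluripotency-low class, repeating these rules in it, the mitosis line, the labelled genes of the plot of times, the promoters and the motifs were chosen after values were seen. Scrublet was run in scanpy 1.11.5 in its default setting, without log-transformation at a higher expected rate (which gave no threshold at time 1), and with log-transformation at expected rates of 5% and 10%. The last was kept beside the default after its scores in the members were seen. Python 3.11.15, numpy 2.4.6, scipy 1.17.1, R 4.3.3 and edgeR 4.0.16 (trimmed mean factors only) were used.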

Additional observations from a re-analysis of the deposited data

Results flagged for a closer look

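With 1 library per time point no group could be searched for a deviating sample, and none of the differences below was tested. Named genes at least 2-fold apart between the times that moved the other way in other barcodes were listed, whatever the size of the second value, so many of the second values lie near 0. Log2 ratios of time 2 over time 1 are given first for pluripotency-low and then for other barcodes. Smoc2 was at 1.83 and -0.0504, Tslp at 1.79 and -0.15, Actg2 at 1.52 and -0.0196, and Anxa8, an annexin, at 1.30 and -0.16. Cavin2, a coat protein of caveolae, was at 1.23 and -0.0684, Pmaip1 at 1.23 and -0.44, and Cnn1 at 1.11 and -0.77. In all collagen-positive barcodes Actg2 was at 1.39, and Crabp1 at -1.003 against 0.12 in other barcodes. In pluripotency-low barcodes alone Crabp1 was at -0.74, under 2-fold.

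Msln was at 4.93 between the times in pluripotency-low barcodes and -0.49 in other barcodes. Its log2 ratio to other barcodes was -0.60 at time 1 and 4.82 at time 2, with 98.3% of the time 2 UMIs in 5 barcodes. Lyz2 had a log2 ratio to other barcodes of 4.13 at time 1 and -0.37 at time 2 in pluripotency-low barcodes, and of 3.50 and -0.34 in all collagen-positive ones. Without the 4 barcodes rich in blood markers Lyz2 was at 0.711 CPM at time 1. For the noncoding gene Gm42418 the ratios were -0.37 and 0.0106.

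Barcodes below the depth minimum also carried the 5 choosing genes. Of barcodes with at least 5000 and under 18000 UMIs, 84 of 13670 at time 1 (0.614%, exact Clopper-Pearson 95% interval 0.490 to 0.760) and 171 of 2172 at time 2 (7.87%, 6.77 to 9.09) had at least 50 of their UMIs. Of these, 16 and 134 were pluripotency-low. The shares have different denominators, since shallow barcodes were far fewer at time 2.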

How the results depend on the processing

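The results on all collagen-positive barcodes were recomputed under 15 alternatives, each where it applied. The single genes were those named in these barcodes for the 20 highest ratios to other barcodes and the 10 highest and lowest between the times. None of their ratios changed sign, but they were picked for extreme ratios, so this says little of other genes. Genes named only in the pluripotency-low class were not recomputed. Of 896 values of genes and list medians, 12 changed sign, in the medians of 5 lists between the times, none of them 2-fold. At a marker threshold of 20 UMIs the fibroblast markers went from -0.32 to 0.59, the fibrillar collagens from -0.25 to 0.68, the senescence genes from -0.52 to 0.39, the p53 targets from -0.13 to 0.17 and the pluripotent markers from 0.54 to -0.46. Without the pluripotency-high barcodes the first 2 were at 0.0745 and 0.0948, the p53 targets at 0.16 and the pluripotent markers at -0.52. The p53 median was also above 0, at 0.14, 0.10 and 0.10, after removal of the top 10% of log-transformed Scrublet scores, as a mean per barcode and after thinning. No direction is therefore drawn from these medians. A marker threshold of 20 UMIs gave shares of 2.78% at time 1 and 2.93% at time 2, 163 genes higher than in other barcodes and 73 higher at time 2. A threshold of 200 UMIs gave 0.828% and 1.68%, and 58 higher at time 2. The share was larger at time 2 at thresholds of 50 and 200 UMIs, but the ratio differed. At 20 UMIs the shares were close, at 721 of 25962 and 829 of 28317 barcodes. No interval was computed for the alternatives, so no order is drawn at 20 UMIs. A minimum of 5000 UMIs gave 1.21% and 2.95%. Removing the pluripotency-high barcodes gave 0.736% and 1.18%, 511 genes higher and 329 lower than in other barcodes, and 17 higher at time 2. Removing the top 10% of log-transformed Scrublet scores gave 1.26% and 1.959%, 2 genes lower than in other barcodes and 20 higher at time 2. Removing Scrublet's own doublet calls was planned but not run, since its automatic threshold marked 0 barcodes in the default setting and 540 and 62 with log-transformed counts. With a minimum of 20 CPM, 497 genes were higher than in other barcodes, 60 higher at time 2 and 98 lower. With no minimum these counts were 792, 144 and 306, so the counts depend on the minimum. The count higher at time 2 was also 57 with trimmed mean scaling, 14 with the mean of CPM per barcode, 15 with barcodes thinned to 18000 UMIs, and 1 among genes at least 2 times higher than in other barcodes. Trimmed mean scaling shifted ratios to other barcodes by -0.10 and -0.13 and ratios between times by 0.10 on the log2 scale. Of the recomputed values of single genes and list medians, 386 moved by less than their counting error and 510 by more. No paired analysis was possible because each time point has 1 library. A count of 0 in a class allows up to 3 counts of its summed UMIs.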
